A study of Danio rerio with 4 samples.

Results

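Leukocytes share a small set of proteins that pass signals from surface receptors and that build and dismantle the actin network beneath the membrane. The 10 genes described here were listed under that heading: ptprc, laptm5, grap2b, lcp2a, plcg2, wasb, coro1a, gmfg, cotl1 and arhgdig. They were chosen by name, with earlier results of these data known. All probe sets whose platform symbol is one of the 10 were taken, which gave 12 probe sets and 10 of the 8793 genes measured. The RNA was that of sorted adult zebrafish kidney cells, the kidney being the organ where this fish forms blood. Within the lymphoid scatter gate, Hoechst staining separated a side population (zSP), whose cells retain little of this DNA dye, from the main population (zMP). The labels give no strain, genotype or treatment for either population, and no age beyond adult. Per the series' design text, 20 fish went through 3 sorting experiments, the lysates were pooled by population, and each RNA was split over 2 arrays.

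In white blood cells the phosphatase CD45 keeps Src family kinases responsive, adaptor proteins gather around activated receptors, and phospholipase C turns the signal into calcium release. WASP proteins then start branched actin filaments through the Arp2/3 complex, while coronins, glia maturation factors and cofilin relatives bind or remodel those filaments.

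Each population is 1 RNA pool, so its arrays repeat the amplification and hybridization only, and no test between the populations is possible. A difference is the zSP mean minus the zMP mean on the log2 scale, followed by the lowest and highest value over the 4 zSP and zMP array pairs. A gene was called when all 4 reached 2-fold in the same direction, with no p-value behind the call. Values up to 6.15, the top of 49 control probe sets for sequences foreign to the fish, form the blank range, in which a transcript cannot be told from background. This limit is a working bound set by 1 control, and with the next highest control it would be 5.24. The number of arrays limits the precision. In sorted bulk RNA, fewer cells of a type and less RNA per cell cannot be told apart.

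The actin regulators coro1a, gmfg and wasb, and arhgdig, were 2.82-fold to 4.06-fold lower in zSP. The phospholipase plcg2 was higher in zSP by 2.94-fold. The signalling genes ptprc, laptm5 and grap2b were lower on both zSP arrays but were not called, cotl1 was slightly higher, and lcp2a gave no direction. In all, 4 of the 10 genes were called higher in zMP, where 2.89% of all genes were. A single member was called higher in zSP, a share close to the 7.85% of all genes. Every zSP array lay below every zMP array for 7 members, against 41.0% of all genes, and above for 2, against 21.7%. The median difference of the 10 genes was -1.10, with medians of -1.49 to -1.12 over single pairs of arrays, while the median of all genes was -0.20. These counts and medians only describe the 10 genes, since they were chosen with earlier results of these data known.

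**Figure D1:**
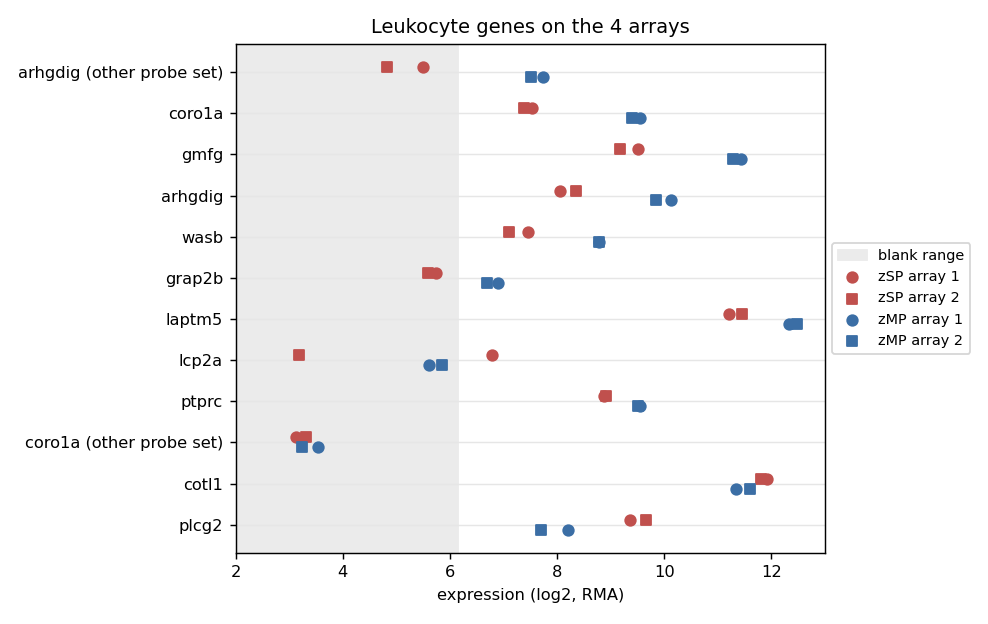
RMA expression on the log2 scale (x axis) of the 12 probe sets of the 10 genes (y axis) on the 4 arrays, with zSP in red, zMP in blue, circles for array 1 and squares for array 2. Grey marks the blank range up to 6.15, the highest population mean of 49 control probe sets. Judged by the brighter probe set, red and blue points are apart for 9 of the 10 genes, and lcp2a has its zSP arrays at 6.79 and 3.19 on either side of the zMP arrays.

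The receptor end of the pathway was measured by ptprc, which encodes CD45, a transmembrane tyrosine phosphatase of leukocytes. Its expression was 8.87 and 8.91 on the zSP arrays and 9.55 and 9.51 on the zMP arrays. The aliquots of either pool lay within 0.040 of each other, and the zSP arrays were the lower pair. The difference was -0.64 (-0.68 to -0.60), or 1.56-fold, and ptprc was not called. After cyclic loess normalization it was -0.39.

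The gene laptm5 encodes a lysosomal membrane protein of blood cells that in mammals lowers surface antigen receptor. It stood at 11.21 and 11.46 in zSP and at 12.32 and 12.48 in zMP. The groups did not overlap, and the difference was -1.07 (-1.27 to -0.87), with a single pair of arrays short of 2-fold. Without zSP replicate 2 or zMP replicate 1 it would be called, at -1.19 and -1.15. Leaving out either array removes the pair that fell short, so these calls were fixed in advance. After cyclic loess the difference was -0.61.

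The adaptors act at a transmembrane scaffold below the T cell receptor. The gene grap2b encodes a relative of mammalian GADS, which brings the adaptor encoded by lcp2 to that scaffold. Expression of grap2b was 5.73 and 5.59 in zSP and 6.90 and 6.70 in zMP. The zSP arrays were lower and within the blank range, so the fold stands against background there. Its difference was -1.14 (-1.31 to -0.96), and 1 pair just missed 2-fold. Without zSP replicate 1 it was -1.21 and without zMP replicate 2 it was -1.24, and a second quantile normalization gave -1.36. All 3 of these settings would call the gene. Each array left out belongs to the pair that missed 2-fold, so the calls without it were fixed in advance. Cyclic loess gave -1.09 and centring each array on its median gave -1.06, without a call. The gene stayed uncalled under 10 of the 15 alternatives.

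For lcp2a, the adaptor itself, the zSP arrays read 6.79 and 3.19 and the zMP arrays 5.62 and 5.85. The aliquots of the same zSP RNA were thus 3.60 apart, and the zMP arrays lay between them. A gap wider than this between the zSP aliquots was found for 10 of 8793 genes. The difference of -0.74 (-2.66 to 1.18) became -2.54 without zSP replicate 1, where the gene would be called, and 1.06 without zSP replicate 2. Both population means lay within the blank range, so it is not shown that the transcript was present, although the zMP mean of 5.73 passes the lower limit of 5.24.

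The gene plcg2 encodes phospholipase C gamma 2, which in mammals acts below the B cell and Fc receptors. It was the called member on the zSP side, with 9.36 and 9.67 in zSP and 8.21 and 7.70 in zMP. The lowest zSP value was above the highest zMP value. The difference was 1.56 (1.15 to 1.96), and 8.40% of all genes had a higher one. Between 1.3 and 1.81 across the alternatives, plcg2 lost its call only at a size of 3-fold. Its relative plcg1, with both means within the blank range, differed by -0.59 (-0.83 to -0.34) and was not called.

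Among the actin regulators, wasb encodes a zebrafish relative of the Wiskott-Aldrich syndrome protein, an activator of Arp2/3. It measured 7.46 and 7.10 in zSP against 8.78 and 8.78 in zMP. The zSP arrays were the lower pair, with a difference of -1.50 (-1.68 to -1.32), or 2.82-fold.

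The gene coro1a encodes a coronin of leukocytes that binds actin filaments and Arp2/3. The brighter of its probe sets gave 7.52 and 7.38 in zSP and 9.55 and 9.40 in zMP. Aliquots agreed to within 0.15, and the zSP arrays were the lower pair, with a difference of -2.02 (-2.17 to -1.88), or 4.06-fold. The dimmer coro1a probe set read 3.13 and 3.32 in zSP and 3.53 and 3.24 in zMP. All 4 of these values lay within the blank range and the groups overlapped, with a difference of -0.16. The call therefore rests on the brighter probe set, and it ended at -1.09 with both averaged.

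The gene gmfg encodes glia maturation factor gamma, which in mammals is enriched in blood cells and removes branches made by Arp2/3. Its arrays read 9.51 and 9.17 in zSP and 11.44 and 11.28 in zMP. The zSP pair was the lower one, with a difference of -2.02 (-2.27 to -1.77), or 4.06-fold, and 0.967% of all genes had a lower difference. Its call stood under all 15 alternatives, including 3-fold, where coro1a kept its call too. Many of these could not end a call. A lower fold, the difference of means and 1 array left out cannot do so, and gmfg has 1 probe set.

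The gene cotl1 encodes coactosin-like protein, which binds actin filaments. It was among the members that were higher in zSP, at 11.92 and 11.80 against 11.34 and 11.60 in zMP. The groups did not overlap, although the difference of 0.39 (0.20 to 0.59) was not called. It was 0.83 after cyclic loess and 0.78 after a second quantile normalization, and no alternative called it.

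The name arhgdig follows the platform, and its relation to mammalian genes of like name was not checked. The gene had a pair of probe sets, and both were called. The brighter read 8.05 and 8.36 in zSP and 10.12 and 9.84 in zMP, a difference of -1.77 (-2.07 to -1.48). The dimmer read 5.50 and 4.83 in zSP and 7.74 and 7.51 in zMP, a difference of -2.46 (-2.91 to -2.01). Both probe sets put zSP lower, by 3.42-fold and 5.50-fold, the latter with its zSP arrays within the blank range.

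Among the differences of the member genes, coro1a, gmfg and arhgdig could not be ordered, since their ranges over the pairs of arrays overlap. Those of wasb and arhgdig overlap too, as do those of grap2b and laptm5, and the range of lcp2a overlaps all of these. Among genes that passed the top of the blank range in at least 1 population, as 9 of the 10 members did, the background of calls was 6.57% higher in zMP and 16.9% higher in zSP.

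Of 36 relatives of the 10 genes listed, 18 were measured, and 6 of these passed the blank range in at least 1 population. The calls were 1 towards zSP and 0 towards zMP, where 7.85% and 2.89% of all genes were called. Their median was -0.16 (-0.38 to -0.06). The called relative was coro1b, the coronin with a wide tissue range in mammals, at 6.82 and 7.13 in zSP and 5.40 and 4.77 in zMP. Its zSP arrays were above its zMP arrays by 1.89 (1.42 to 2.36), with the zMP arrays within the blank range. The coro1a difference minus the coro1b difference was -3.91 (-4.38 to -3.44). The same quantity was -2.20 (-2.57 to -1.82) for gmfg against gmfb and -2.10 (-2.51 to -1.69) for wasb against waslb. It was -1.12 (-1.37 to -0.87) for arhgdig against its relative arhgdia, which itself differed by -0.66. For plcg2 against plcg1 it was 2.14 (1.73 to 2.56). Of these relatives, plcg1 and waslb had both means within the blank range, so it is not shown that their transcripts were present. The zMP mean of plcg1, 5.28, passes the lower limit of 5.24.

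**Figure D2:**
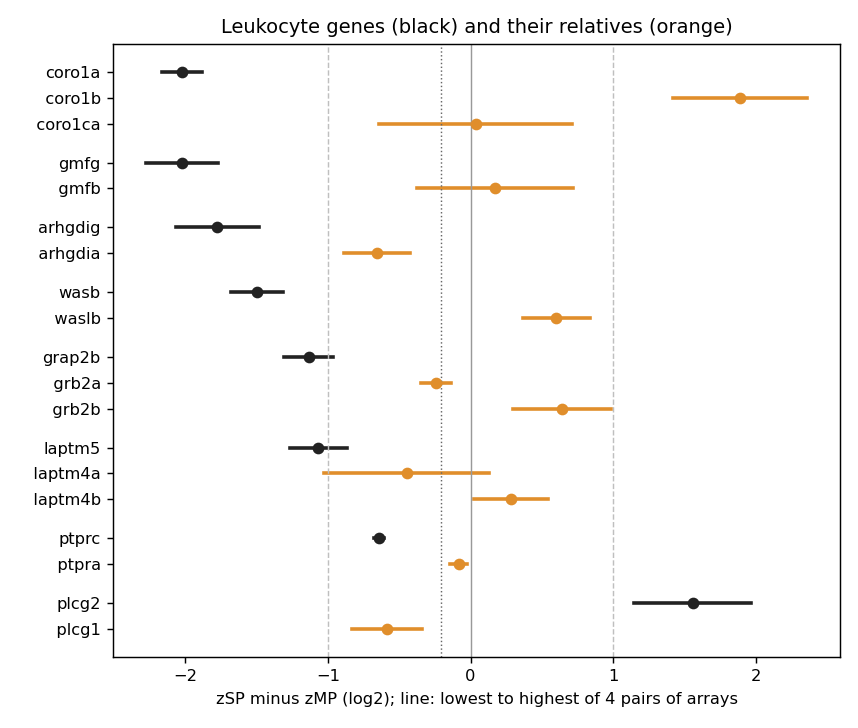
Difference zSP minus zMP on the log2 scale (x axis) for 8 of the 10 genes (black) and relatives paired with them (orange, under each gene). Not all of the 18 measured relatives are drawn. Points are the difference of means, and lines run from the lowest to the highest of the 4 pairs of arrays. Dashed lines mark 2-fold and the dotted line the median of all genes, -0.20. The bars of coro1a and coro1b lie on opposite sides of 0, at -2.02 and 1.89. Both means of coro1ca, laptm4b, grb2a, ptpra, waslb and plcg1 lay within the blank range, so it is not shown that their transcripts were present.

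In antigen receptor signalling around ptprc, the adaptors and plcg2, 22 of 72 listed genes were measured. The single call on each side is near the shares of 7.85% towards zSP and 2.89% towards zMP among all genes, and the median was -0.09 (-0.27 to -0.02). The Src family kinase yes1 was higher in zSP by 2.65 (2.38 to 2.93), with zMP within the blank range. This call rests on the brighter of its probe sets, since the difference was 1.45 with both averaged and 0.26, not called, with the dimmer. The exchange factor vav3b differed by -1.59 (-1.63 to -1.54), both populations lying within the blank range. Above the blank range in at least 1 population were 10 of the 22.

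Of 60 actin filament regulators listed, 32 were measured, with 5 calls towards zSP and 1 towards zMP. Among all genes, 7.85% and 2.89% were called in these directions. Of all genes above the blank range, where 26 of the 32 lay, 16.9% and 6.57% were. Their median was -0.53 (-0.60 to -0.44). For 19 of the 32 every zSP array lay below every zMP array, the pattern of 41.0% of all genes. The gene called higher in zMP was capgb, a filament-capping protein gene, at 5.71 and 6.0 in zSP and 8.50 and 8.20 in zMP. Its zSP arrays were the lower pair and within the blank range, so the difference of -2.49 (-2.78 to -2.20) stands against background there. On the zSP side stood the Arp2/3 subunit arpc1a at 2.65 (2.61 to 2.70), the filament bundler fscn1a at 2.48 (1.82 to 3.13) and the WASP-interacting protein gene wipf2a at 1.82 (1.72 to 1.92). With its dimmest probe set fscn1a was at 0.54 and not called. The zMP mean of fscn1a and both means of wipf2a lay within the blank range.

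Arp2/3 is the complex that wasb activates and that coro1a and gmfg act on, and its 8 measured genes were picked from the actin list after their values were seen. For 6 of them every zSP array was below every zMP array, with differences from -1.16 to -0.47, and none of the 6 was called. That order was found for 41.0% of all genes and for 35.6% of those above the blank range. Among these were arpc1b at -1.16 and actr3 at -1.07, and actr2a at -1.03, which lay within the blank range in zSP and zMP. The arrays of arpc5b overlapped. The gene arpc1a, which encodes the alternative form of the arpc1b subunit, read 8.94 and 8.99 in zSP and 6.34 and 6.29 in zMP. Its zSP arrays were thus the higher pair, opposite to arpc1b at 9.60 and 9.47 in zSP and 10.56 and 10.83 in zMP.

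Other leukocyte genes were mostly lower on the zSP arrays without being called. Of 35 listed, 12 were measured, with 0 calls towards zSP and 1, capgb, towards zMP. Their median was -0.95 (-1.24 to -0.63). For 10 of the 12 every zSP array lay below every zMP array, as for 41.0% of all genes, while 2.89% of all genes were called towards zMP. This list shares capgb and lcp1 with the actin list, ptpn6 with the signalling list, and cebpa with the neutrophil markers and runx3 with the T and NK cell markers.

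**Figure D3:**
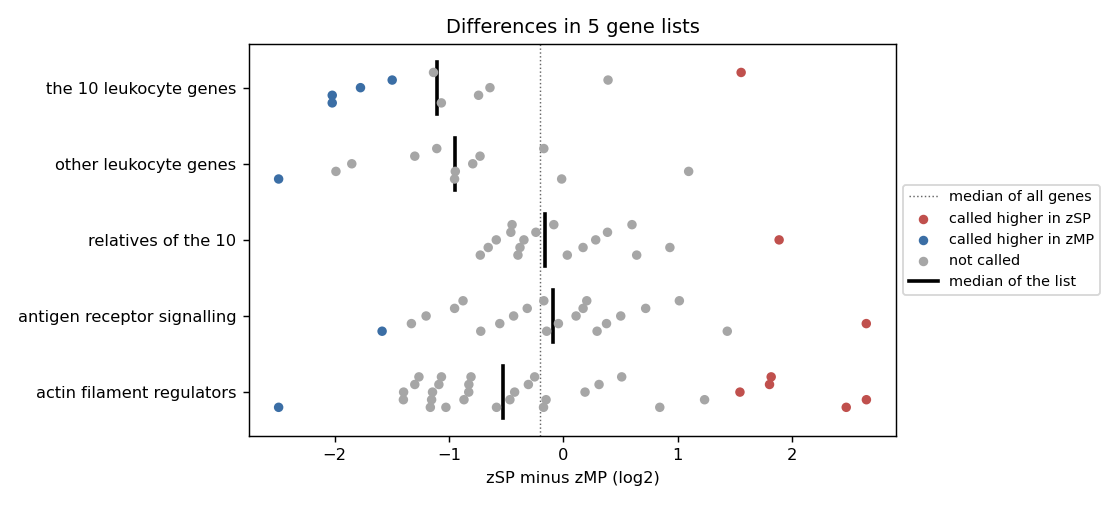
Difference zSP minus zMP on the log2 scale (x axis) of each measured gene in 5 lists (y axis), with red for genes called higher in zSP, blue for higher in zMP and grey for genes not called. Black bars are list medians, -1.10 for the 10 genes and -0.95 for other leukocyte genes, and the dotted line is the median of all genes, -0.20.

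Markers of other cells differed between the same arrays. Among all genes, 7.85% were called towards zSP and 2.89% towards zMP. Of those above the blank range these shares were 16.9% and 6.57%. Of 19 epithelial markers measured, 15 were called higher in zSP, and their summed linear expression was 14653 and 14289 on the zSP arrays against 655 and 598 on the zMP arrays. Of 10 stromal markers, 8 were called higher in zSP, with sums of 4437 and 3803 against 253 and 299. In zMP, 2 of the epithelial and 0 of the stromal markers passed the blank range. In at least 1 population 12 of the 19 and 7 of the 10 passed it. Both means of the called slc13a1, pax2a, hnf1bb, postnb and col1a2 lay within that range. Of 4 T and NK cell markers, 2 were called towards zMP and 0 towards zSP, with sums of 61.2 and 146 in zSP against 886 and 800 in zMP. The largest part of these zMP sums was the called nkl.4, at 9.35 and 9.35 on the log2 scale. Its zSP arrays were far apart, at 3.61 and 6.03. Both means of the other called marker, cd28, lay within the blank range. None of these 4 passed the blank range in zSP. Only 3 B cell markers were measured, none called, with sums of 369 and 382 against 294 and 259 and a median difference of -0.34. The largest part of these sums was btk, at 8.37 and 8.30 in zSP and 7.73 and 7.49 in zMP on the log2 scale. The marker blnk differed by -0.88 and the arrays of pax5 overlapped, both genes lying within the blank range. Both btk and blnk are in the signalling list too. Among neutrophil markers 4 of 9 were called towards zSP and 1 towards zMP, with sums of 8216 and 7677 against 2547 and 2645. The largest single part of these zSP sums was mmp13a, at 12.21 and 11.94 in zSP and 7.58 and 6.42 in zMP on the log2 scale. The probe set of mmp13a has a name that marks possible sequence sharing with other transcripts. The calls of mpx and cebpd were lost with the dimmest probe set, and that of mpx also with its probe sets averaged, at 0.51. Both means of ncf4, the marker called towards zMP, lay within the blank range. Every zSP array lay above every zMP array for 6 of the 9 and below for 2, among them lyz at -0.40 (-0.64 to -0.15). Of 7 macrophage markers, 4 were called towards zSP and 1 towards zMP, with sums of 6273 and 6586 against 9669 and 10375. The antigen presentation genes cd74a and cd74b made up 9377 and 10107 of the zMP sums, and the other 5 markers summed to 1765 and 1658 in zSP against 292 and 267 in zMP. Of 6 thrombocyte markers, 4 were called towards zSP and 0 towards zMP, with sums of 476 and 381 against 202 and 173. Both means of the called f13a1a.1, thbs1b and mmrn2a lay within the blank range. The called marker that passed it was fn1b, in zSP, at 2.56 (1.67 to 3.45). The marker itga2b, which passed that range, differed by 0.17, and gp1bb, within it, by -0.19, and neither was called. Whether the called genes mark thrombocytes alone was not tested. Of 10 erythroid markers, 0 were called towards zSP and 1 towards zMP, with sums of 99.6 and 125 against 371 and 500. Only 1 of these 10 passed the blank range, the called hbaa1 at 7.97 and 8.24 in zMP on the log2 scale. Of 12 housekeeping genes, actb1 and gapdh were called higher in zSP, by 1.78 and 1.85, and the list median was -0.01. The GAPDH control's 3′ probe set exceeded its 5′ probe set by 3.83 and 4.06 in zSP and by 3.03 and 3.15 in zMP. For the acta1 control this gap was 0.60 and 1.81 in zSP and -0.52 and -0.21 in zMP. The median difference zSP minus zMP of the blank controls was -0.38, with 48 of the 49 lower in zSP, while the median of all genes was -0.20. The part of these in the differences of the leukocyte genes was not tested.

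**Figure D4:**
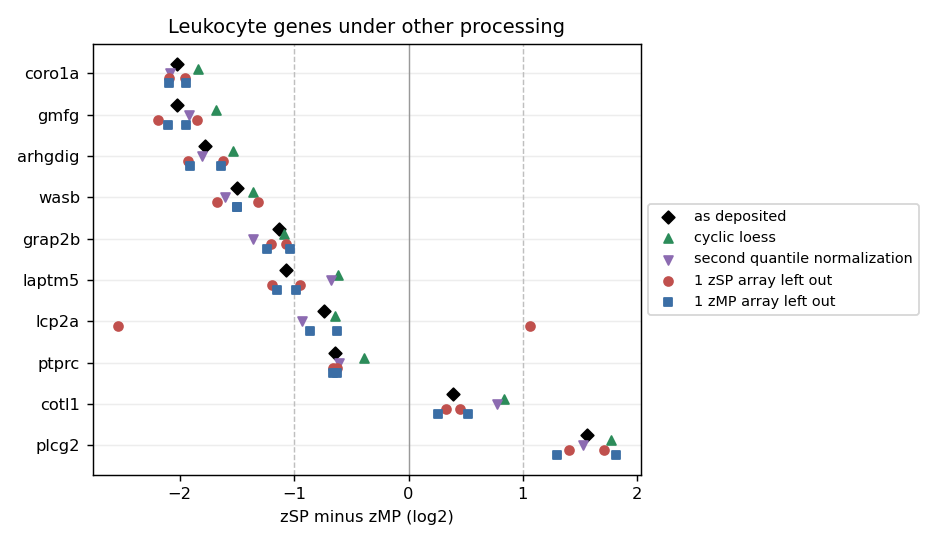
Difference zSP minus zMP on the log2 scale (x axis) of the 10 genes (y axis) as deposited (black), after 2 other normalizations (green and purple) and with 1 array left out (red for a zSP array, blue for a zMP array). Dashed lines mark 2-fold. The red points of lcp2a lie at -2.54 and 1.06, while the points of each other gene stay on 1 side of 0. For these other genes the red and blue points cannot cross 0, since their zSP and zMP arrays do not overlap.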

How the data were processed

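The authors deposited log2 values for 15617 probe sets, computed by RMA with affy, per the submitters' processing notes, from Affymetrix zebrafish arrays. RMA corrects background, equalizes arrays and summarises probes. The software versions were not given in the sources used here. Because RMA forces the arrays to like distributions, differences are relative to the bulk of the probe sets. The label protocols describe 2 rounds of in vitro transcription, which favours 3′ ends.

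These values were not changed. Without 115 controls, 15502 probe sets remained, of which 10795 had 1 annotated gene, 135 several and 4572 none. Symbols were updated by gene identifier in the GRCz12tu gene table, which held 8723 of 8796. A gene was represented by its probe set with the highest mean. List symbols were matched without synonyms. The blank range ends at 6.15, the highest population mean of 49 controls for bacterial, tag and reporter sequences. Named from each list were up to 4 called genes with the largest difference, or the 2 largest where none was called. Those of the marker lists are given as counts, apart from a few. The members and lists were chosen with earlier results of these data known. A further gene list is not reported here. The call rule was also run on simulated data. The outcome of that run is not given here, and it is no measure of how reliable the calls between these RNA pools are. Normalizations used limma 3.58.1 in R 4.3.3.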

Additional observations from a re-analysis of the deposited data

How the results depend on the processing

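Of the 10 leukocyte genes, 4 were called higher in zMP and 1 higher in zSP. At 1.5-fold these counts were 7 and 1, against 9.66% and 11.6% of all genes, and at 3-fold they were 2 and 0, against 0.694% and 4.50%. With 1 array left out, where only 2 pairs need to pass, they were 5 to 6 and 1. Of all genes, 6.05% to 6.72% were then called higher in zMP and 11.0% to 12.5% higher in zSP. The median difference of -1.10 was -0.87 after cyclic loess, -0.90 with the dimmest probe set of each gene and -1.41 to -1.09 with 1 array left out. Cyclic loess moved the median of all genes from -0.20 to 0.00 and gave 166 genes higher in zMP and 817 higher in zSP. The sign of the difference held under the alternatives for 9 of the 10 genes, and lcp2a turned without zSP replicate 2. The arrays of these 9 genes do not overlap, so leaving out an array could not turn their sign. Another fold, the rule of means and the blank filters leave a difference as it is. Only renormalizing could turn it, or for coro1a and arhgdig another choice of probe set. The blank range without its highest control, added after the data were seen, left the counts at 4 and 1. Of the 4057 genes above that limit, 5.52% were called higher in zMP and 14.7% higher in zSP. Of 328 differences of named genes that took another value under an alternative, 279 moved by less than the SD between arrays and 49 by more. With 1 array left out a difference cannot move by more than this SD. These settings therefore count towards the 279 by construction, and the split does not measure stability. The called marker genes postnb and mpx turned to -0.065 and -0.23 with the dimmest probe set, and mpx to -0.037 without shared-sequence probe sets. With the dimmest probe set cebpd fell to 0.11 and epcam to 1.48, and neither was called. The cause was not tested. No paired analysis was possible because the arrays of a population are aliquots of 1 RNA pool, so that no value here comes from a test and a shared array number leaves the differences of means as they are.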

Other observations

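Closely related actin genes outside the 10 also stood on opposite sides, all picked after their values were seen. The thymosin gene tmsb1, whose product binds actin monomers, read 8.38 and 8.67 in zSP and 6.96 and 6.48 in zMP, a called difference of 1.81 (1.42 to 2.19). Its relative tmsb read 6.56 and 6.70 in zSP and 7.77 and 7.67 in zMP, a difference of -1.09 (-1.21 to -0.97) that was not called. The filament-capping subunits capza1b and capza1a differed by 0.51 (0.28 to 0.74) and -1.40 (-2.07 to -0.73), and neither was called. The myeloid and lymphoid transcription factor gene spi1b showed hardly any difference, with 8.35 and 8.39 in zSP and 8.45 and 8.32 in zMP. The gene cebpa, listed here among the neutrophil markers too, was higher on both zSP arrays by 1.1 (0.29 to 1.91) without being called. Its zMP arrays stood apart, at 6.93 and 8.49.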
